A study of Homo sapiens with 24 samples.

Results

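The chromatin of 9 gene loci was followed in the parental prostate cancer line LNCaP and in its enzalutamide-resistant derivative RES-A by FAIRE-seq, which isolates and sequences DNA that is not wrapped around nucleosomes. The loci are SLC45A3 (chr1:205600000-205700000), ACSL3 (chr2:223680000-223860000), NDRG1 (chr8:134200000-134360000), PMEPA1 (chr20:56180000-56340000), ELL2 (chr5:95170000-95350000), ABCC4 (chr13:95620000-96000000), ZBTB16 (chr11:113880000-114170000), TRPM8 (chr2:234780000-234980000) and STEAP4 (chr7:87860000-87980000), all in hg19. Their members are the peaks that overlap these windows in any of the 24 deposited peak lists. These number 5129 of the 4683186 peak calls in those lists. The windows were set by position, around genes known to be induced by androgen in prostate cells. The loci were chosen with earlier results of these data known. The lists hold open chromatin and no RNA, so that the label of the genes could be compared only with the chromatin response. With androgen 3 of 109 tested regions rose in LNCaP and 13 in RES-A, where 0.932% and 5.71% of all tested regions rose. The raised regions lay at 6 of the 9 loci. In RES-A those of ABCC4, ELL2 and STEAP4 lost their calls when single libraries were left out. For the raised ZBTB16 region that starts at 113951026 the outcome of these fits is not given here. In LNCaP those of ELL2 and ZBTB16 did.

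The androgen receptor is a nuclear receptor that binds dihydrotestosterone (DHT), enters the nucleus and binds DNA at androgen response elements, mostly in enhancers far from gene starts, where nucleosomes are displaced. Enzalutamide (ENZ) occupies the hormone-binding pocket of the receptor and blocks its nuclear entry, DNA binding and recruitment of cofactors. Among the genes at these loci, SLC45A3 encodes prostein, a membrane transporter made largely in prostate epithelium. TRPM8 encodes the cold- and menthol-gated cation channel of sensory neurons and prostate, STEAP4 a metalloreductase, ABCC4 an ATP-driven exporter of organic anions, and ACSL3 an enzyme that couples long fatty acids to coenzyme A. ZBTB16 encodes the zinc finger repressor PLZF, ELL2 an elongation factor for RNA polymerase II, NDRG1 a stress- and differentiation-linked cytoplasmic protein, and PMEPA1 a membrane protein that recruits ubiquitin ligases and restrains receptor signalling.

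Both sublines were kept for 3 days in RPMI medium with 5% charcoal-stripped serum, and 10 µM ENZ was present in that time for RES-A only. Each was then given DMSO (vehicle), 10 nM DHT, 10 µM ENZ or DHT and ENZ together for 18 h. Every subline and treatment had 3 libraries, described by the study as biological replicates, which makes 8 groups and 24 libraries. RES-A is a single derived line, its DMSO libraries come from cells that had been in ENZ until the treatment, and the sources used here do not say whether ENZ was kept in the medium during the 18 h. The lists held between 73254 and 275774 peaks per library, with a genome-wide background of 0.406 to 5.99 reads per base. The first replicates of LNCaP with ENZ and of LNCaP with DHT were the shallowest, with backgrounds of 0.406 and 0.739.

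The deposited lists give positions and not sequences, and they use a genome build other than the GRCh38.p14 promoter set of RefSeq, so that no peak could be placed on a promoter. Reference promoters are shown as sequence context only. They span 250 bases before to 50 after each gene start. The set held 14 promoters for 6 of the genes, and none for ELL2, NDRG1 or ZBTB16. The androgen response element is a pair of hexamers that read AGAACA and TGTTCT, 3 bases apart. No promoter of these genes held the pair in that form, and among all 35116 promoters 1 did. A single hexamer on either strand was present in 3 of the 14 promoters, or 21.4%, beside 14.8% of all promoters of the same length. Those 3 are printed first, 5′ to 3′ on the strand of the gene, with the hexamer in capitals. The single promoters of SLC45A3 and STEAP4, which have no hexamer, follow because several regions in their windows rose with DHT.
TRPM8, chr2:233979899-233980198, plus strand, first base of the hexamer at -166 from the gene start: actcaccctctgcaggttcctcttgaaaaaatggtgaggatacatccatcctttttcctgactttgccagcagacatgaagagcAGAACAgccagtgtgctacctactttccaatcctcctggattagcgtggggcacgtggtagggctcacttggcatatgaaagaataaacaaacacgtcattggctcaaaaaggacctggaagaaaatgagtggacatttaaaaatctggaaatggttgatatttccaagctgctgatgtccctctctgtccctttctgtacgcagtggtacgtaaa
PMEPA1, chr20:57711423-57711722, minus strand: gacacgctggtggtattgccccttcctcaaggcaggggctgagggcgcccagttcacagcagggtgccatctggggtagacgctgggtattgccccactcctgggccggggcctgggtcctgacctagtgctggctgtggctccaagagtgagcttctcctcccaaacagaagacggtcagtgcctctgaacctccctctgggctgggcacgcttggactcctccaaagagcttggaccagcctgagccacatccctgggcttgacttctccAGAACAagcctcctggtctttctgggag
PMEPA1, chr20:57710528-57710827, minus strand, first base of the hexamer at -229 from the gene start: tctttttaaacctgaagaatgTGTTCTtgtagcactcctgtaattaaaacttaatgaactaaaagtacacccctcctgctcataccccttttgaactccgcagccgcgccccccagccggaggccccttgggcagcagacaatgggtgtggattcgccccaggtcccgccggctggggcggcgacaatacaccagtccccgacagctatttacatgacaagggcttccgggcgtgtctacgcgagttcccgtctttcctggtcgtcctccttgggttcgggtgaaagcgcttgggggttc
SLC45A3, chr1:205680460-205680759, minus strand: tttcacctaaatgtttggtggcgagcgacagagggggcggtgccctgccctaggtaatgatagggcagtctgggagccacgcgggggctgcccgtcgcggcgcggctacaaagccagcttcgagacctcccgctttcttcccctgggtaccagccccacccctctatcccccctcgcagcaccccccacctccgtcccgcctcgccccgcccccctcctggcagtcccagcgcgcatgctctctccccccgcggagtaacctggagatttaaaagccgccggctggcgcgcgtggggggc
STEAP4, chr7:88306845-88307144, minus strand: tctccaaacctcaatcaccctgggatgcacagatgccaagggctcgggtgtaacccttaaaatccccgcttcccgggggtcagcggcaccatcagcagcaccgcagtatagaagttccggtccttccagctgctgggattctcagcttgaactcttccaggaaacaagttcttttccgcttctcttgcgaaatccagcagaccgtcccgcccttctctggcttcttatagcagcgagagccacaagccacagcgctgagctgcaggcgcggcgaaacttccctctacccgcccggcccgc

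Open chromatin at the 9 loci was first counted among the 50000 peaks of each library with the smallest p-values, so that each library contributed the same number of peaks. The TRPM8 window held 6.0 ± 0.953 such peaks in LNCaP and 2.83 ± 0.835 in RES-A (mean ± SD, n = 12 libraries each), and the ranges of 4 to 7 and 1 to 4 met only at 4. SLC45A3 went the same way, with 8.42 ± 0.996 peaks in LNCaP and 5.92 ± 0.996 in RES-A, as did ZBTB16, with 16.6 ± 2.02 and 12.9 ± 1.56, and PMEPA1, with 5.92 ± 0.289 and 4.67 ± 0.651. ACSL3 had more top-ranked peaks in RES-A, 7.25 ± 1.77 against 4.5 ± 1.09, and ABCC4 had 10.3 ± 1.3 against 8.83 ± 1.85. ELL2 had a mean of 6.58 in both sublines, NDRG1 had 7.67 ± 0.778 in RES-A and 7.75 ± 1.14 in LNCaP, and STEAP4 had 3.67 ± 0.985 and 4.25 ± 0.866. These counts are descriptions and carry no test. Among all deposited peaks, whose number follows depth, RES-A had on average 3.167 more peaks than LNCaP at PMEPA1, 2.167 more at STEAP4 and 6.667 more at NDRG1, so that the direction turned at these loci. By that count the TRPM8 window held 13.2 ± 3.6 peaks in LNCaP and 13.5 ± 1.31 in RES-A.

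**Figure D1:**
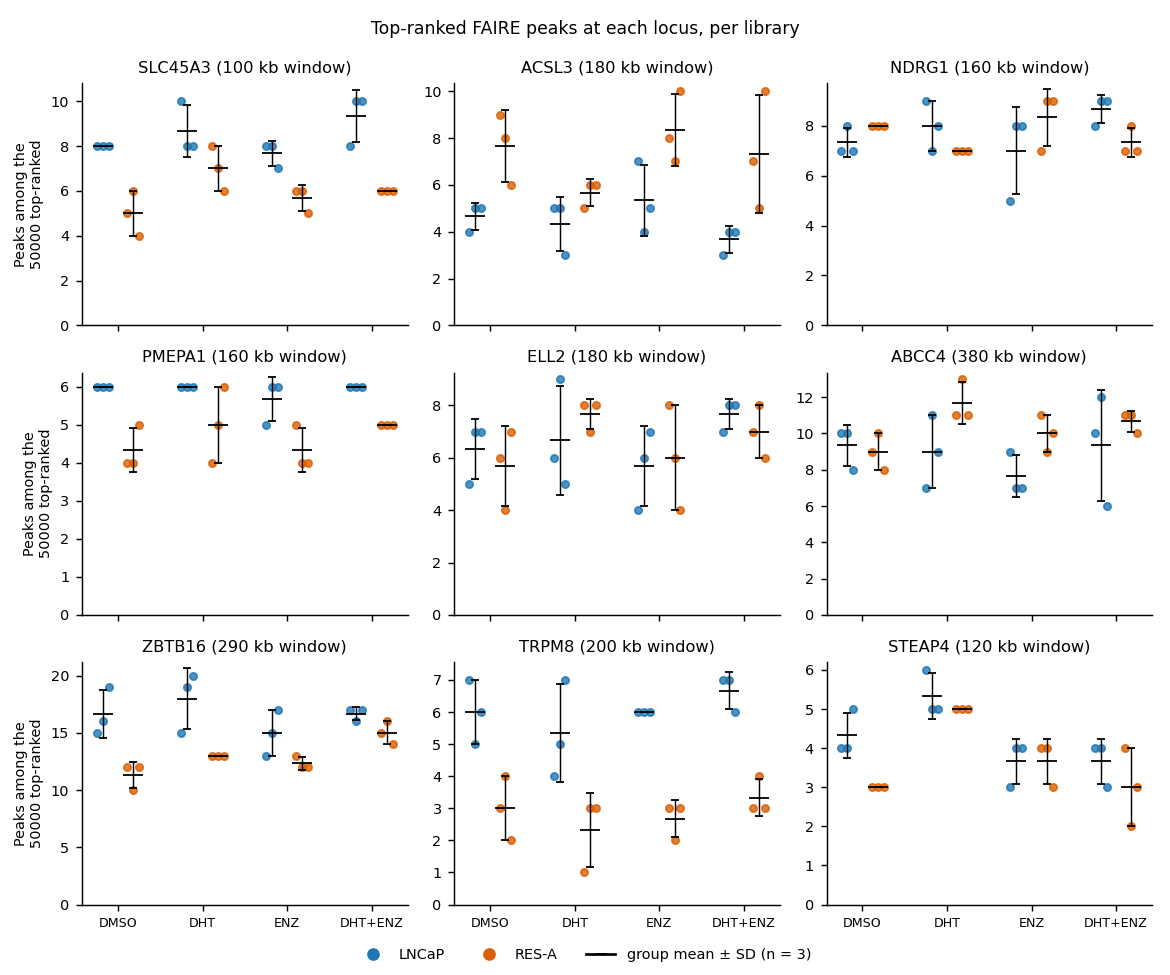
Peaks at each of the 9 loci among the 50000 top-ranked peaks of a library (y axis) by treatment (x axis) in LNCaP (blue) and RES-A (orange), with 1 point per library and the mean ± SD of 3 libraries in black. At TRPM8 the LNCaP libraries have 4 to 7 peaks and the RES-A libraries 1 to 4.

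The chromosome around the loci also differed between the sublines, and its part in these counts was not tested. Within 5 Mb on either side of the SLC45A3 window, RES-A libraries had 0.788% to 0.852% of their top-ranked peaks and LNCaP libraries 0.522% to 0.616%, which is higher in RES-A while the window itself held fewer. Around TRPM8 the shares were 0.36% to 0.416% in RES-A and 0.288% to 0.346% in LNCaP, again opposite to the window. Around STEAP4 they were lower in RES-A, at 0.218% to 0.27% against 0.298% to 0.386%. The shares around ACSL3, ABCC4 and ZBTB16 overlapped between the sublines, those around NDRG1 and PMEPA1 were higher in RES-A without overlap, and those around ELL2 were lower without overlap.

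To compare single sites, the top-ranked peaks of the 24 libraries were merged into regions wherever they overlapped. The 9 windows held 153 of the 119361 merged regions, and 109 of these had a top-ranked peak in at least 3 libraries and were tested with 82843 regions genome-wide. The tested regions were spread as 23 at ZBTB16, 18 at ABCC4, 12 each at SLC45A3 and ELL2, 11 each at ACSL3 and NDRG1, 8 each at TRPM8 and STEAP4, and 6 at PMEPA1. The value of a region in a library is the highest fold enrichment of a peak in it over the local background, as the peak caller gave it, and differences were tested with limma on the log2 scale over all tested regions, after each library was centred on the median of the 28770 regions with a peak in all 24 libraries. Folds are given as deposited and differences after that centring. A library with no peak in a region entered the fit at the lowest fold of its own list, between 1.19 and 1.49. The log2 difference against such libraries is therefore set by that value and is neither measured nor a bound. A top-ranked peak was present in all 24 libraries in 15 of the 153 regions (9.8%), beside 10.6% of all merged regions.

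The strongest region of each locus, by median fold over the libraries, was open in both sublines under every treatment, with a peak in all 24 libraries except at ELL2, where 1 LNCaP library listed none. At PMEPA1 the region chr20:56292914-56293923 had folds of 7.85 to 16.4 (median 13.7) in all 12 libraries of LNCaP and 16.2 to 20.6 (median 17.1) in all 12 libraries of RES-A. The strongest ABCC4 region, chr13:95898611-95899145, had folds of 3.46 to 15.5 (median 9.51) in all 12 libraries of LNCaP and 14.4 to 17.8 (median 16.1) in all 12 libraries of RES-A. NDRG1 had its strongest region at chr8:134228473-134229330, with folds of 12.2 to 14.8 in RES-A and 6.73 to 13.7 in LNCaP. The strongest regions of the other loci were chr5:95179310-95179916 at ELL2, chr11:114104291-114104870 at ZBTB16, chr2:234861896-234862564 at TRPM8, chr7:87872496-87873041 at STEAP4, chr1:205633526-205634403 at SLC45A3 and chr2:223749728-223750352 at ACSL3, with medians between 7.78 and 9.46 in LNCaP and between 8.1 and 12.7 in RES-A. None of the 9 passed the test with DHT, their log2 differences ranging from -0.24 to 0.16 in LNCaP and from -0.23 to 0.19 in RES-A. Between the sublines the strongest region of ABCC4 was higher in RES-A by 0.47 ± 0.11 (SE, adjusted p = 0.00128) and that of SLC45A3 was lower, at -0.49 ± 0.11 (SE, adjusted p = 0.00132). None of the other strongest regions passed. After centring, those of PMEPA1 and NDRG1 differed by 0.13 ± 0.07 (SE, adjusted p = 0.129) and 0.01 ± 0.06 (SE, adjusted p = 0.876).

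DHT raised 3 of the 109 regions in LNCaP (2.75%), 1 each at ELL2, STEAP4 and ZBTB16, and lowered 0 at an adjusted p under 0.05 (limma with Benjamini-Hochberg adjustment over all tested regions). Genome-wide 0.932% of the tested regions rose and 0.933% fell. In RES-A DHT raised 13 regions (11.9%) and lowered 3 (2.75%), where 5.71% rose and 1.5% fell genome-wide. The raised regions lay at ZBTB16 (4), SLC45A3 (3), ELL2 (2), STEAP4 (2), ABCC4 (1) and TRPM8 (1), and the lowered ones at ZBTB16 (2) and NDRG1 (1). The splits depended on the processing. In LNCaP 1 region rose and 3 fell without centring, 4 rose and 5 fell with the library background as a covariate, and 0 passed when LNCaP was fitted alone. In RES-A 15 rose and 15 fell without the 2 shallowest LNCaP libraries, 17 rose and 13 fell when RES-A was fitted alone, and 16 rose and 11 fell when libraries with no peak were left out. No genome-wide share is given for these alternatives, so that no excess can be read from their counts. At an unadjusted p under 0.05, 19 regions differed in LNCaP and 30 in RES-A. No genome-wide share was counted at that cutoff, so that no excess can be read from these 2 numbers. The median log2 difference of the 109 regions was -0.04 in LNCaP and -0.02 in RES-A, beside -0.05 and -0.03 over all tested regions. These counts include regions that passed the filter through the libraries in which they were high. Only 1 of the 3 regions raised in LNCaP and 4 of the 13 raised in RES-A had a peak in all 24 libraries, as did the 3 lowered ones.

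**Figure D2:**
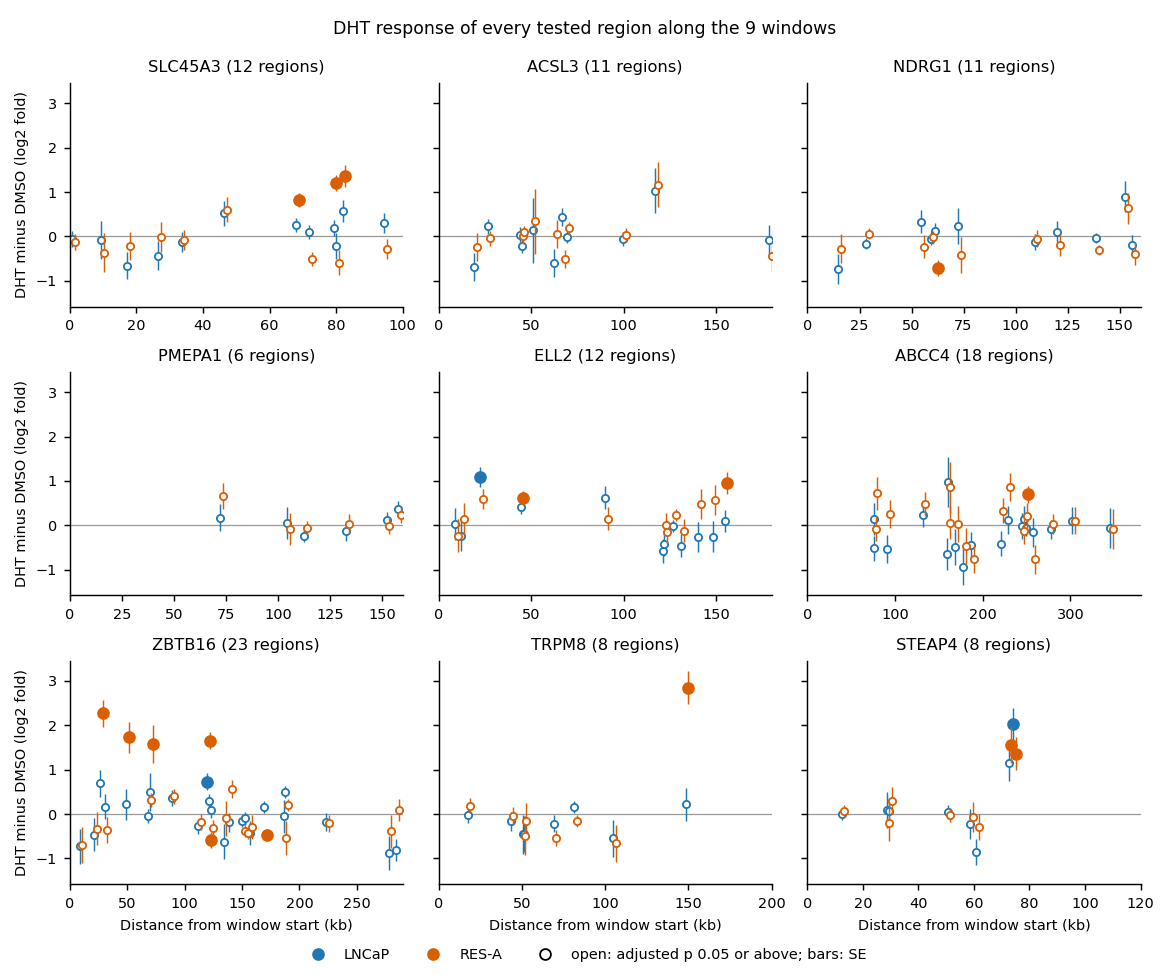
Difference between DHT and DMSO on the log2 fold scale (y axis) for each tested region by its distance from the start of the window in kb (x axis), in LNCaP (blue) and RES-A (orange), with SE as bars and filled points at an adjusted p under 0.05. The raised regions of SLC45A3 lie between 68 and 83 kb, with regions that were not raised between them, and those of STEAP4 at 73.0 and 74.5 kb, whereas those of ZBTB16 are spread from 27.5 to 120.8 kb.

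At TRPM8 the response was at 1 region, chr2:234928707-234929515, 149.1 kb into the window. In RES-A it had no peak in any of the 3 libraries with DMSO, and folds of 7.65, 9.14 and 9.95 with DHT. With ENZ the RES-A libraries had folds of 3.67, no peak and no peak (in replicate order), and with DHT and ENZ 8.48, 4.21 and 5.46. All 3 DHT libraries of RES-A thus had a peak at which the 3 DMSO libraries had none. In LNCaP the same region was open without hormone, with folds of 9.89, 12.4 and 7.35 with DMSO and 6.96, 10.1 and 8.89 with DHT. LNCaP had no peak, 6.34 and 6.06 with ENZ, where the library with no peak is the shallowest, and 11.3, 8.799 and 7.87 with both agents. The DMSO and DHT folds of LNCaP overlapped, as did the DHT folds of LNCaP and RES-A. The log2 difference between DHT and DMSO was 2.85 ± 0.38 (SE, adjusted p = 5.67e-05) in RES-A, with its DMSO libraries entered at the lowest fold of their lists, and 0.22 ± 0.38 (SE, adjusted p = 0.799) in LNCaP. It was the only one of the 109 regions whose DHT response differed between the sublines, by 2.64 ± 0.54 (SE, adjusted p = 0.0306) (limma interaction), where 0.379% of all tested regions had a larger response in RES-A and 0.0797% a smaller one. That call was lost in 10 of the 24 fits without 1 library, with adjusted p up to 0.0784. Averaged over the treatments the region was lower in RES-A than in LNCaP by a log2 difference of -1.53 ± 0.19 (SE, adjusted p = 1.11e-06).

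No other TRPM8 region passed the test with DHT. Of the 8 tested, 3 were lower in RES-A than in LNCaP and 0 were higher, where 20.8% and 29.6% of all tested regions were. Besides the DHT-responsive one these were chr2:234797763-234798548, at -0.25 ± 0.09 (SE, adjusted p = 0.0264), and chr2:234823858-234824174, at -0.26 ± 0.10 (SE, adjusted p = 0.0402), and both turned to small positive values of 0.11 and 0.10 when the libraries were not centred. Their calls were also lost in 3 and 14 of the 24 fits without 1 library, with adjusted p up to 0.0561 and 0.0834. Their folds overlapped, with 4.23 to 10.2 (median 7.66) in all 12 libraries of LNCaP and 5.91 to 8.89 (median 7.802) in all 12 libraries of RES-A for the first.

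At ZBTB16, the window with the most tested regions, 4 of 23 rose with DHT in RES-A. The first, 27.5 kb into the window, was chr11:113907309-113907723. In RES-A its folds were 3.03, no peak and no peak with DMSO and 8.01, 7.68 and 8.12 with DHT. They were 4.12, 3.11 and 3.08 with ENZ and 5.91, 6.54 and 4.89 with both. The DHT libraries stood above all other RES-A libraries, and those with both agents lay above those with ENZ. On the log2 scale the difference between DHT and DMSO was 2.27 ± 0.30 (SE, adjusted p = 5.01e-05), with the 2 DMSO libraries that lack a peak entered at the lowest fold of their lists, and that between DHT+ENZ and DHT was -0.41 ± 0.30 (SE, adjusted p = 0.945). In LNCaP the folds were 5.46, 4.62 and 3.88 with DMSO and 4.5, 6.99 and 5.78 with DHT, which overlap, with a log2 difference of 0.69 ± 0.30 (SE, adjusted p = 0.239).

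The region chr11:113930005-113930542, 50.3 kb into the window, was open in every LNCaP library, with folds of 6.78, 6.73 and 5.03 with DMSO and 5.01, 5.46 and 5.85 with DHT. RES-A had no peak in any of the 3 libraries with DMSO and folds of 4.798, 3.91 and 3.61 with DHT. With ENZ and with both agents the RES-A libraries had 3.67, no peak and no peak, and 3.77, 3.68 and no peak. Every LNCaP fold was above every RES-A fold, except that the first LNCaP replicate with ENZ, at 4.19, lay below the first RES-A replicate with DHT. DHT raised the region in RES-A by 1.73 ± 0.35 (SE, adjusted p = 0.00274) on the log2 scale, and LNCaP differed by 0.22 ± 0.35 (SE, adjusted p = 0.771). The RES-A libraries with DMSO were entered at the lowest fold of their lists. Over the treatments RES-A was lower by a log2 difference of -1.72 ± 0.17 (SE, adjusted p = 5.73e-08), with the 6 RES-A libraries that lack a peak entered at the lowest fold of their lists.

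The region chr11:114000642-114001019, 120.8 kb into the window, had a peak in RES-A with DHT alone. In LNCaP the folds were 3.95, 4.19 and 3.48 with DMSO, 5.33, 5.56 and 3.94 under DHT, no peak, 3.73 and 3.78 with ENZ and 4.18, 3.66 and 3.87 with both. In RES-A the DHT libraries had folds of 3.99, 3.64 and 4.01, and none of the 9 other RES-A libraries listed a peak. The peak of RES-A was thus present with DHT and absent with DHT and ENZ, while LNCaP had it in 11 of 12 libraries and its lowest DHT fold lay within the range of the DMSO libraries. The log2 difference between DHT and DMSO was 1.66 ± 0.19 (SE, adjusted p = 9.46e-06) in RES-A and 0.73 ± 0.19 (SE, adjusted p = 0.0492) in LNCaP. All 3 RES-A libraries with DMSO were entered at the lowest fold of their lists. The SE and p of RES-A therefore measure no spread of DMSO folds. The region entered the test through the 3 LNCaP libraries with DHT, the only ones in which it was top-ranked, so that its LNCaP value is not independent of the filter. The LNCaP call was lost in 20 of the 24 fits without 1 library and in 4 other alternatives, with adjusted p up to 0.402 when LNCaP was fitted alone. The difference between DHT+ENZ and DHT in RES-A was -1.55 ± 0.19 (SE, adjusted p = 0.000126), with all 3 DHT+ENZ libraries entered at the lowest fold of their lists. It passed in the 33 alternatives in which the region could be tested, and had no value with absent peaks left out, with at least 6 libraries or from 25000 peaks.

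Another ZBTB16 region, chr11:113951026-113951535, had folds of 5.52, 3.92 and 5.19 in RES-A with DHT, 2.82, no peak and no peak with DMSO, 3.495, no peak and no peak with ENZ and no peak in any of the 3 libraries with both. DHT raised it by 1.58 ± 0.43 (SE, adjusted p = 0.0253) on the log2 scale, and the difference after the addition of ENZ was -1.86 ± 0.43 (SE, adjusted p = 0.0459). Libraries without a peak entered at the lowest fold of their lists. The region was top-ranked in 3 libraries, all of LNCaP, and the second call was lost in 16 of the 24 fits without 1 library, with adjusted p up to 0.169. For the first call the outcome of those fits is not given here. In LNCaP the first DHT library, which is among the shallowest with a background of 0.739, had no peak. The other LNCaP libraries with DHT had folds of 5.40 and 4.83, above the 3.63, 2.88 and 2.82 with DMSO. With the first DHT library entered at the lowest fold of its list, the log2 difference was 0.50 ± 0.43 (SE, adjusted p = 0.54). The 2 ZBTB16 regions lower with DHT in RES-A, named here after their values were seen, were chr11:114002067-114002385, at -0.59 ± 0.17 (SE, adjusted p = 0.044), and chr11:114049768-114050573, at -0.47 ± 0.14 (SE, adjusted p = 0.0438). Their DHT folds of 4.25, 3.85 and 4.52, and of 10.1, 8.77 and 9.79, lay below the DMSO folds of 6.54, 5.88 and 6.73, and of 13.3, 13.9 and 12.9. Near the end of the window, chr11:114165430-114165843 was higher in RES-A, with folds of 9.09 to 12.4 (median 11.1) in all 12 libraries against 3.32 to 6.03 (median 4.42) in the 10 of 12 libraries with a peak of LNCaP, and a log2 difference of 1.19 ± 0.13 (SE, adjusted p = 1.08e-07). The folds of the sublines did not overlap there.

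At SLC45A3, 3 of 12 regions rose with DHT in RES-A. Regions with a negative log2 difference that did not pass the test lay between them, chr1:205671970-205672567 at -0.51 ± 0.16 (SE, adjusted p = 0.0624) and chr1:205680221-205680591 at -0.59 ± 0.29 (SE, adjusted p = 0.308). The region chr1:205667954-205668557 had folds of 5.95, 5.71 and 4.401 with DMSO and 8.603, 10.7 and 8.63 with DHT in RES-A. With ENZ the folds were 6.99, 8.27 and 8.39, and with both 9.36, 9.45 and 8.53. The 3 DMSO libraries were the lowest of RES-A, below those with ENZ as well as those with DHT. In LNCaP the DMSO folds of 9.73, 10.5 and 7.25 and the DHT folds of 8.44, 8.895 and 7.57 overlapped. On the log2 scale the difference between DHT and DMSO was 0.82 ± 0.16 (SE, adjusted p = 0.00188) in RES-A and 0.27 ± 0.16 (SE, adjusted p = 0.364) in LNCaP, and that between ENZ and DMSO in RES-A was 0.54 ± 0.16 (SE, adjusted p = 1).

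A second raised region, chr1:205679271-205680000, had folds in RES-A of 2.72, 2.71 and 2.55 with DMSO, 6.02, 6.31 and 5.85 under DHT, 3.699, 3.53 and 2.798 with ENZ and 5.33, 4.37 and 4.11 with both. The treatments followed each other without overlap, from DMSO to ENZ, to both agents and to DHT. LNCaP had 7.33, 6.93 and 6.06 with DMSO and 7.95, 5.72 and 4.502 with DHT, so that the DHT libraries of RES-A lay within the LNCaP range and its DMSO libraries below it. DHT raised the region by 1.21 ± 0.18 (SE, adjusted p = 0.000203) in RES-A, and the log2 difference in LNCaP was 0.20 ± 0.18 (SE, adjusted p = 0.58). Neither the difference between DHT+ENZ and DHT, -0.35 ± 0.18 (SE, adjusted p = 0.726), nor that between ENZ and DMSO, 0.29 ± 0.18 (SE, adjusted p = 1), passed the test. The difference between the DHT responses of the sublines was 1.01 ± 0.26 (SE, adjusted p = 0.0969) and passed in 5 of the alternatives, among them the fit without the first LNCaP library with DHT, at 1.30 with an adjusted p of 0.00171. The last of the 3, chr1:205682013-205682615, had no peak in any of the 3 libraries of RES-A with DMSO, and folds of 3.96, 3.03 and 2.68 under DHT, 2.597, 2.35 and 2.57 with ENZ and 2.57, 2.69 and no peak with both. All of these peaks were low, and none was among the top-ranked of a RES-A library. The log2 difference between DHT and DMSO was 1.37 ± 0.25 (SE, adjusted p = 0.00102), with the DMSO libraries entered at the lowest fold of their lists, and it was 0.68 with an adjusted p of 0.216 under quantile normalization.

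The sublines differed at 10 of the 12 SLC45A3 regions, 4 higher and 6 lower in RES-A, beside 29.6% higher and 20.8% lower among all tested regions. At chr1:205609731-205610072 LNCaP had folds of 3.95 to 8.397 (median 4.98) in the 11 of 12 libraries with a peak and RES-A 3.21 to 3.35 (median 3.23) in the 3 of 12 libraries with a peak. Every RES-A fold there was below every LNCaP fold, and the log2 difference was -1.85 ± 0.22 (SE, adjusted p = 6.03e-07), with the 10 libraries that lack a peak entered at the lowest fold of their lists. The regions chr1:205679271-205680000 and chr1:205682013-205682615 were lower in RES-A over the treatments, with log2 differences of -0.95 ± 0.09 (SE, adjusted p = 2.86e-08) and -0.84 ± 0.12 (SE, adjusted p = 9.01e-06). The higher share of top-ranked peaks that RES-A had in the 5 Mb around this window stands beside these values, and its part in them was not tested.

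At STEAP4 DHT raised 1 region in LNCaP and 2 in RES-A. The region chr7:87934299-87934706, 74.5 kb into the window, had no peak in any of the 3 libraries of LNCaP with DMSO and folds of 4.66, 3.504 and 3.51 with DHT. With ENZ LNCaP had no peak, no peak and 3.17, and with both agents 3.23, 2.51 and 2.63. The peak was thus present in all LNCaP libraries that received DHT, and each fold with both agents was below each fold with DHT alone. In RES-A the folds were no peak, 4.71 and 3.32 with DMSO, 8.02, 6.34 and 6.33 under DHT, 3.796, 3.897 and 4.21 with ENZ and 4.41, 4.16 and 3.603 with both. The 3 DHT libraries of RES-A were the highest of all 24. DHT raised the region by 2.02 ± 0.37 (SE, adjusted p = 0.00771) in LNCaP, with its DMSO libraries entered at the lowest fold of their lists, and by 1.36 ± 0.37 (SE, adjusted p = 0.0261) in RES-A. The RES-A call was lost without each of 4 libraries, at adjusted p = 0.191 without the first replicate with DMSO and 0.106, 0.0592 and 0.0588 without those with DHT. The LNCaP call was lost when LNCaP was fitted alone, at adjusted p = 0.123. The region was top-ranked in 4 libraries, all with DHT, and passed the filter through them.

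A second STEAP4 region lay beside it, chr7:87932726-87933287, where RES-A had folds of 3.86, no peak and 3.01 with DMSO, 6.46, 8.18 and 6.77 under DHT, no peak, 4.31 and 3.204 with ENZ and 7.22, 5.697 and 4.86 with both. LNCaP had 3.09, 2.67 and 3.39 with DMSO, 4.92, 5.53 and 4.97 under DHT, no peak, 2.51 and 2.67 with ENZ and 3.34, 2.599 and no peak with both. In each subline every DHT library stood above every library with DMSO or ENZ. The region was top-ranked in 3 LNCaP and 4 RES-A libraries, so that this order may not be independent of the filter. The log2 difference was 1.56 ± 0.41 (SE, adjusted p = 0.0203) in RES-A and 1.15 ± 0.41 (SE, adjusted p = 0.149) in LNCaP, where it did not pass. The RES-A call was lost without the second DMSO library (adjusted p = 0.156) and without DHT replicate 2 or 3 (0.0822 and 0.0532). Between the sublines 4 of the 8 regions differed, 2 in each direction, where 29.6% of all tested regions were higher and 20.8% lower in RES-A. They included chr7:87918942-87919552, higher in RES-A by 0.73 ± 0.17 (SE, adjusted p = 0.00118), chr7:87934299-87934706, higher by 0.55 ± 0.18 (SE, adjusted p = 0.0183) and not called under quantile normalization, and chr7:87889671-87890283, lower at -0.50 ± 0.15 (SE, adjusted p = 0.00905), which was -0.14 with an adjusted p of 0.501 without centring.

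**Figure D3:**
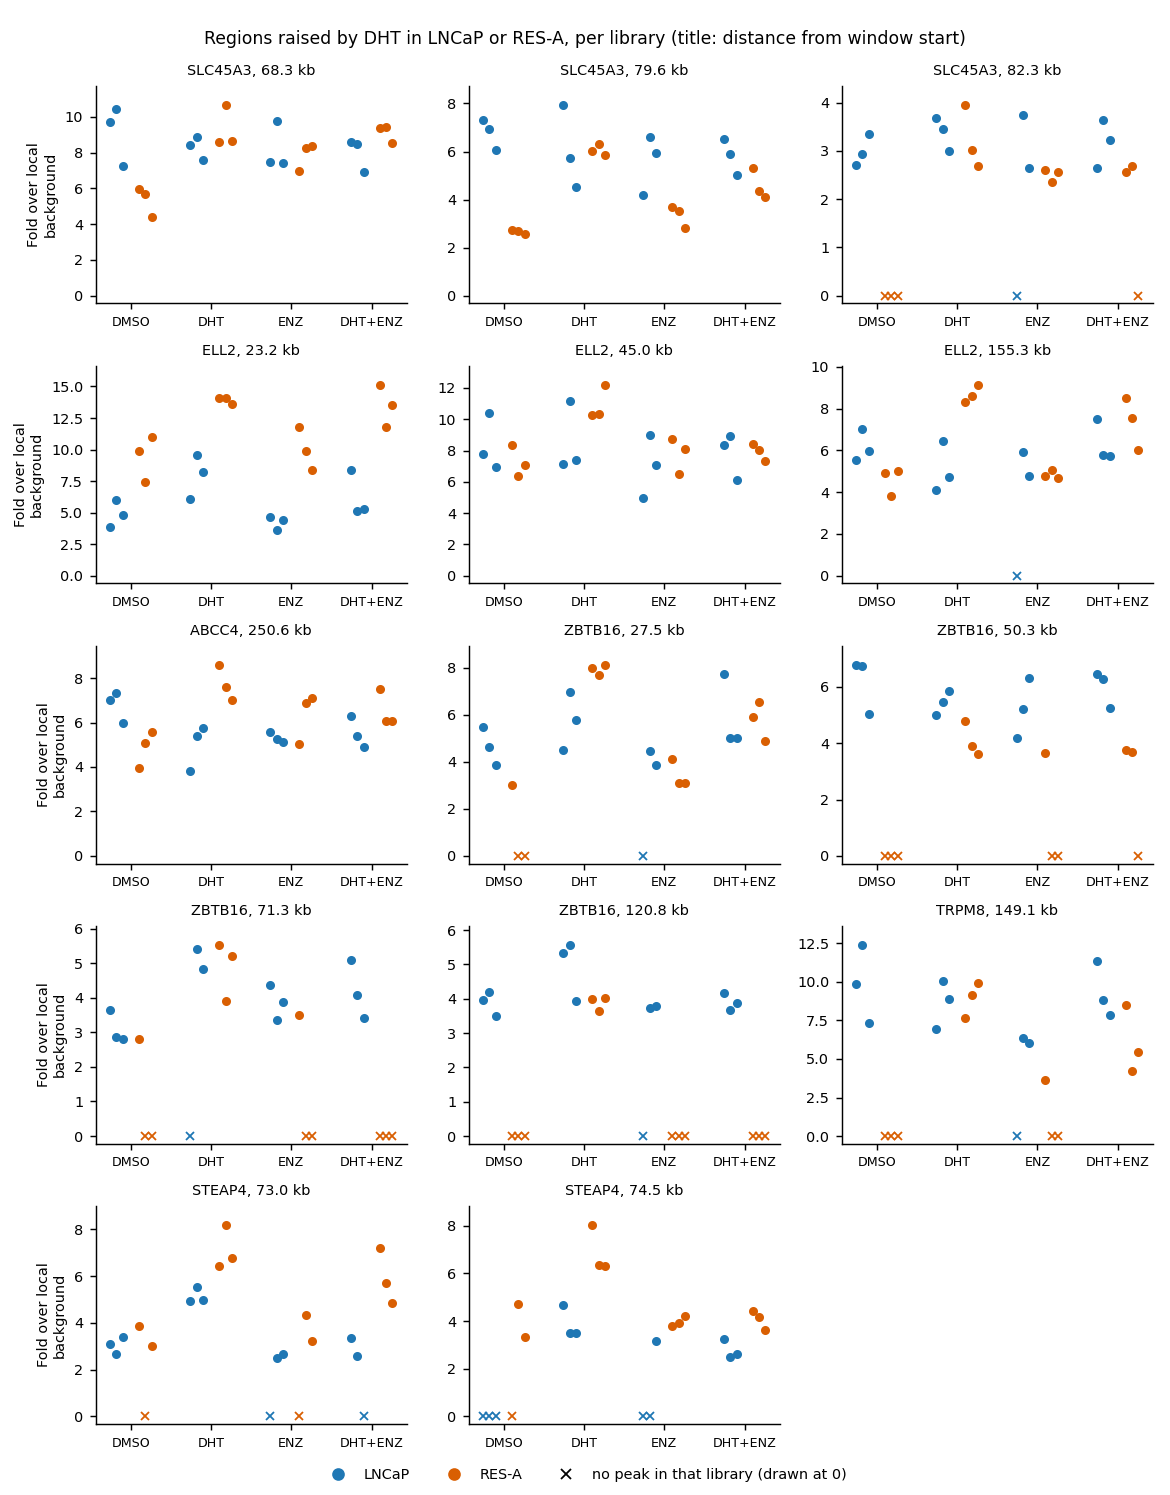
Fold enrichment over local background (y axis) in each library at the 14 regions raised by DHT in LNCaP (blue) or RES-A (orange), by treatment (x axis), with the locus and the distance from the window start above each panel and crosses for libraries with no peak. At TRPM8, 149.1 kb, and ZBTB16, 50.3 kb, the LNCaP libraries have peaks with DMSO where the RES-A libraries have none.

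At ELL2 the region chr5:95192927-95193391, 23.2 kb into the window, rose with DHT in LNCaP, from folds of 3.896, 6.02 and 4.8 to 6.101, 9.54 and 8.19. LNCaP had 4.62, 3.62 and 4.41 with ENZ and 8.36, 5.16 and 5.25 with both agents. RES-A had 9.92, 7.43 and 11.02 with DMSO, 14.1, 14.1 and 13.6 under DHT, 11.8, 9.91 and 8.38 with ENZ and 15.1, 11.8 and 13.5 with both. The DHT libraries of each subline stood above its DMSO libraries, and RES-A with DMSO overlapped LNCaP with DHT. On the log2 scale the difference between DHT and DMSO was 1.09 ± 0.23 (SE, adjusted p = 0.0174) in LNCaP and 0.60 ± 0.23 (SE, adjusted p = 0.146) in RES-A. The LNCaP call was lost without the first DMSO library (adjusted p = 0.0814), without centring (0.0596) and when LNCaP was fitted alone (0.27). Over the treatments the region was higher in RES-A by 0.69 ± 0.11 (SE, adjusted p = 4.07e-05).

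In RES-A DHT raised 2 other ELL2 regions. The first, chr5:95214691-95215210, had folds of 8.33, 6.37 and 7.08 with DMSO and 10.3, 10.4 and 12.2 with DHT, while LNCaP had 7.79, 10.4 and 6.95 and 7.17, 11.1 and 7.43. The second, chr5:95324591-95325958, had 4.93, 3.82 and 5.01 with DMSO and 8.304, 8.598 and 9.14 with DHT, against 5.55, 7.02 and 5.98, and 4.12, 6.45 and 4.72, in LNCaP. The deposited folds of the RES-A groups did not overlap at either region, and those of LNCaP did. After centring, the log2 differences in LNCaP were 0.42 ± 0.16 (SE, adjusted p = 0.175) and 0.09 ± 0.25 (SE, adjusted p = 0.872). The DHT responses of the sublines did not differ at either region by the test (limma interaction, adjusted p = 0.854 and 0.435). In RES-A the log2 differences were 0.61 ± 0.16 (SE, adjusted p = 0.0179) and 0.95 ± 0.25 (SE, adjusted p = 0.0209), and both calls were lost without centring (adjusted p = 0.215 and 0.154). The first was also lost without DMSO replicate 2 or 3 (0.0973 and 0.0826) or DHT replicate 3 (0.0976). The second was lost without those DMSO libraries (0.106 and 0.0518) or DHT replicate 2 or 3 (0.0594 and 0.0752). Between the sublines 7 of the 12 ELL2 regions differed, 5 of them higher in RES-A, beside 29.6% higher and 20.8% lower among all tested regions. Among these were chr5:95260409-95261002, higher by 0.68 ± 0.13 (SE, adjusted p = 0.000133), and chr5:95318475-95319385, lower at -0.97 ± 0.17 (SE, adjusted p = 8.87e-05), with folds of 3.33 to 8.22 (median 5.38) in the 11 of 12 libraries with a peak of LNCaP and 2.98 to 4.12 (median 3.43) in the 11 of 12 libraries with a peak of RES-A.

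At ABCC4, the longest window, 1 of 18 regions rose with DHT, in RES-A. The region chr13:95870207-95870909, 250.6 kb into the window, had folds of 3.94, 5.07 and 5.57 with DMSO and 8.59, 7.58 and 6.99 with DHT. With ENZ it had 5.04, 6.895 and 7.098, and with both 7.52, 6.09 and 6.09. In LNCaP the DHT folds of 3.83, 5.38 and 5.74 lay below the DMSO folds of 6.99, 7.31 and 5.96, and the difference was close to 0 once the libraries were centred. The log2 difference was 0.70 ± 0.18 (SE, adjusted p = 0.0227) in RES-A and -0.06 ± 0.18 (SE, adjusted p = 0.888) in LNCaP. The RES-A call was lost without centring (adjusted p = 0.0536), without the first DMSO library (0.137) and without the first or second DHT library (0.104 and 0.0608). The sublines differed at 8 of the 18 regions, 5 of them higher in RES-A, beside 29.6% higher and 20.8% lower among all tested regions. The region chr13:95966570-95967104 had folds of 9.03 to 12.95 (median 11.2) in all 12 libraries of RES-A and 2.83 to 7.22 (median 4.52) in the 9 of 12 libraries with a peak of LNCaP, with a log2 difference of 1.28 ± 0.23 (SE, adjusted p = 7.87e-05) and no overlap. The region chr13:95712295-95712924 was higher by 0.85 ± 0.16 (SE, adjusted p = 0.000123), and chr13:95781299-95781809 was lower at -1.12 ± 0.28 (SE, adjusted p = 0.00268).

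NDRG1 was the only locus other than ZBTB16 with a region that fell with DHT. In RES-A chr8:134261615-134262680 had folds of 8.495, 6.802 and 6.99 with DMSO, 5.08, 4.22 and 4.17 under DHT, 6.995, 6.26 and 7.902 with ENZ and 6.696, 6.42 and 5.097 with both. The DHT libraries were the lowest of RES-A, with the highest of them just below the lowest library with both agents. The log2 difference between DHT and DMSO was -0.71 ± 0.18 (SE, adjusted p = 0.016) in RES-A and 0.13 ± 0.18 (SE, adjusted p = 0.735) in LNCaP, and that between DHT+ENZ and DHT in RES-A was 0.49 ± 0.18 (SE, adjusted p = 0.364). The call was lost without the first DMSO library (adjusted p = 0.101) or DHT replicate 2 or 3 (0.0671 and 0.0631). The sublines differed at 3 of 11 regions, 2 higher and 1 lower in RES-A, beside 29.6% higher and 20.8% lower among all tested regions. At chr8:134272748-134273053 RES-A had folds of 3.95 to 10.04 (median 6.66) in all 12 libraries and LNCaP 2.81 to 4.11 (median 3.58) in the 3 of 12 libraries with a peak, a log2 difference of 1.63 ± 0.20 (SE, adjusted p = 1.1e-06), and the highest LNCaP fold lay within the RES-A range. The LNCaP libraries that lack a peak there were entered at the lowest fold of their lists. The other two, chr8:134353222-134353624 at 0.46 ± 0.18 (SE, adjusted p = 0.0368) and chr8:134320456-134320954 at -0.30 ± 0.12 (SE, adjusted p = 0.0477), were lost in 12 and 16 of the 24 fits without 1 library, and the latter turned to 0.06 without centring.

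No region of ACSL3 or PMEPA1 passed the test with DHT in either subline. The smallest adjusted p at ACSL3 was 0.255 in LNCaP and 0.166 in RES-A, and at PMEPA1 it was 0.281 and 0.262. Between the sublines 6 of 11 ACSL3 regions differed, all 6 higher in RES-A, beside 29.6% higher and 20.8% lower among all tested regions. The region chr2:223747278-223747660 had no peak in any of the 12 libraries of LNCaP and folds of 3.96 to 7.698 (median 5.68) in all 12 libraries of RES-A. Its RES-A folds were 7.698, 6.301 and 6.39 with DMSO and 3.96, 5.02 and 5.14 with DHT, and the DHT libraries lay below the DMSO libraries. The log2 difference between the sublines was 1.82 ± 0.10 (SE, adjusted p = 5.77e-12), the smallest adjusted p of the 109 regions. All 12 LNCaP libraries were entered at the lowest fold of their lists. That SE and p therefore measure no spread of LNCaP folds. Between DHT and DMSO in RES-A the log2 difference was -0.51 ± 0.20 (SE, adjusted p = 0.166). The region chr2:223859042-223859506 had folds of 5.05 to 10.98 (median 7.24) in all 12 libraries of RES-A and 2.92 to 3.63 (median 3.27) in the 2 of 12 libraries with a peak of LNCaP, with a log2 difference of 1.97 ± 0.16 (SE, adjusted p = 3.27e-09). The LNCaP libraries that lack a peak there were entered at the lowest fold of their lists. At chr2:223724549-223725084 every RES-A library, at 7.05 to 9.701 (median 8.11) in all 12 libraries, stood above every LNCaP library, at 3.64 to 5.28 (median 4.13) in all 12 libraries, and the log2 difference was 0.62 ± 0.08 (SE, adjusted p = 3.54e-06). At PMEPA1 1 of 6 regions differed, chr20:56252601-56253101, with folds of 3.56 to 10.6 (median 7.23) in all 12 libraries of LNCaP and 2.67 to 6.396 (median 4.46) in the 11 of 12 libraries with a peak of RES-A and a log2 difference of -1.24 ± 0.15 (SE, adjusted p = 6.79e-07). It was top-ranked in 11 LNCaP libraries and in none of RES-A, and the folds of the sublines overlapped.

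The responses of the sublines to DHT were then set side by side for the 109 regions. By the threshold 2 regions passed in both sublines, at STEAP4 and ZBTB16, 1 passed in LNCaP alone, at ELL2, and 14 in RES-A alone. Over all tested regions 0.932% rose and 0.933% fell in LNCaP, and 5.71% rose and 1.5% fell in RES-A. The genome-wide shares that passed in both sublines or in 1 alone were not counted, so that no excess can be read from this split. Both shared regions passed the filter through libraries with DHT, and the LNCaP call was lost in 24 of 34 alternatives at ZBTB16 and in the within-subline fit at STEAP4, so that they are no independent sign of a shared response. A call in 1 subline alone does not show that the responses differ, and the difference itself passed the test only at TRPM8 in the fit reported here. Of the 13 regions raised in RES-A, 5 had a peak in all 12 LNCaP libraries and 4 had a peak in none of the RES-A libraries with DMSO.

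**Figure D4:**
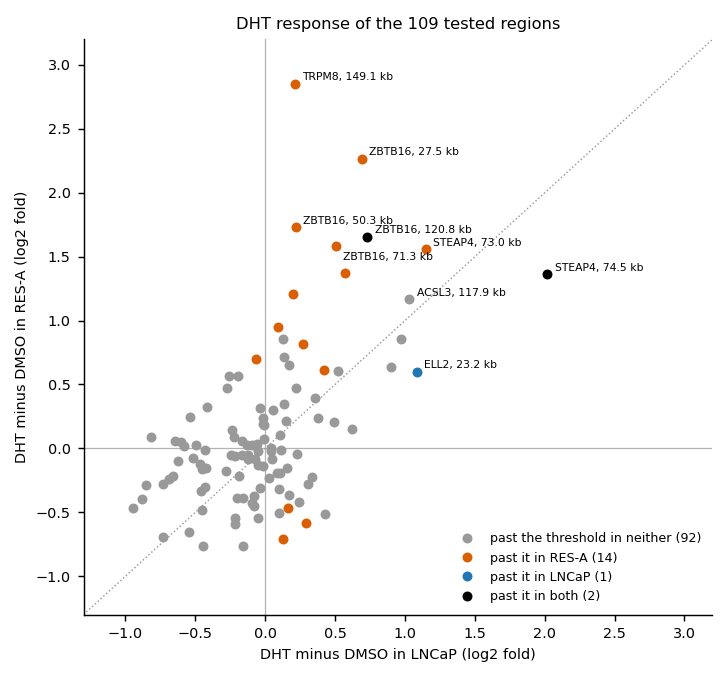
Log2 difference between DHT and DMSO in LNCaP (x axis) and RES-A (y axis) for the 109 tested regions, coloured by the subline in which the adjusted p was under 0.05, with the distance from the window start beside the outlying points. The TRPM8 region lies at 0.22 in LNCaP and 2.85 in RES-A, far above the dotted line of equal responses, and the STEAP4 region at 74.5 kb lies below it.

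ENZ added to DHT lowered 2 regions of the loci in RES-A, both at ZBTB16 as given above, and raised 0, where 0.536% of all tested regions fell and 0.186% rose. In LNCaP 0 of the 109 passed in either direction, beside 0.0893% lower and 0.234% higher genome-wide, and 9 had an unadjusted p under 0.05. The height of the pileup over the genome-wide background was also fitted with limma in place of the fold. By it both STEAP4 regions raised by DHT in RES-A were lower in LNCaP with ENZ added to DHT. The log2 differences were -1.71 (adjusted p = 0.00295) for chr7:87932726-87933287 and -1.19 (adjusted p = 0.0461) for chr7:87934299-87934706. In RES-A they were -0.93 (adjusted p = 0.0491) and -1.45 (adjusted p = 0.0057). Regions of ABCC4, ELL2, NDRG1 and SLC45A3 were also called lower in RES-A by pileup. No genome-wide share is given for that measure. ENZ alone against DMSO changed 0 of the 109 regions in LNCaP, where genome-wide 0.029% rose and 0.0459% fell. It changed 0 in RES-A, where 0.0266% rose and 0.00362% fell. At an unadjusted p under 0.05 the counts were 4 and 5 regions. No genome-wide share was counted at that cutoff, so that no excess can be read from these or from the 9 above. The ZBTB16 region chr11:113907309-113907723 passed for ENZ against DMSO in RES-A without the first DMSO library, the only one of its group with a peak there (1.45, adjusted p = 0.031).

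Across the treatments 27 of the 109 regions were higher and 23 lower in RES-A than in LNCaP (24.8% and 21.1%), where 29.6% and 20.8% of all tested regions were. The members' shares were thus close to the background. The split depended on the scaling, as 60 were higher and 10 lower without centring, which moved the median of all tested regions by 0.36 on the log2 scale, and 21 were higher and 39 lower after quantile normalization. The shares over all tested regions under these scalings are not given here, so that no excess can be read from them. By presence among the top-ranked peaks alone, 52 regions with a call in 6 to 18 libraries could be compared by Fisher's exact test over 12 against 12 libraries, adjusted over 38599 regions. At an adjusted p under 0.05, 10 of these had more calls in RES-A and 15 had more in LNCaP, beside 31.7% and 26.1% genome-wide. ACSL3 chr2:223724549-223725084, ABCC4 chr13:95966570-95967104 and ZBTB16 chr11:114165430-114165843 were each top-ranked in 12 RES-A libraries and 1 LNCaP library (adjusted p = 7.84e-05).

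**Figure D5:**
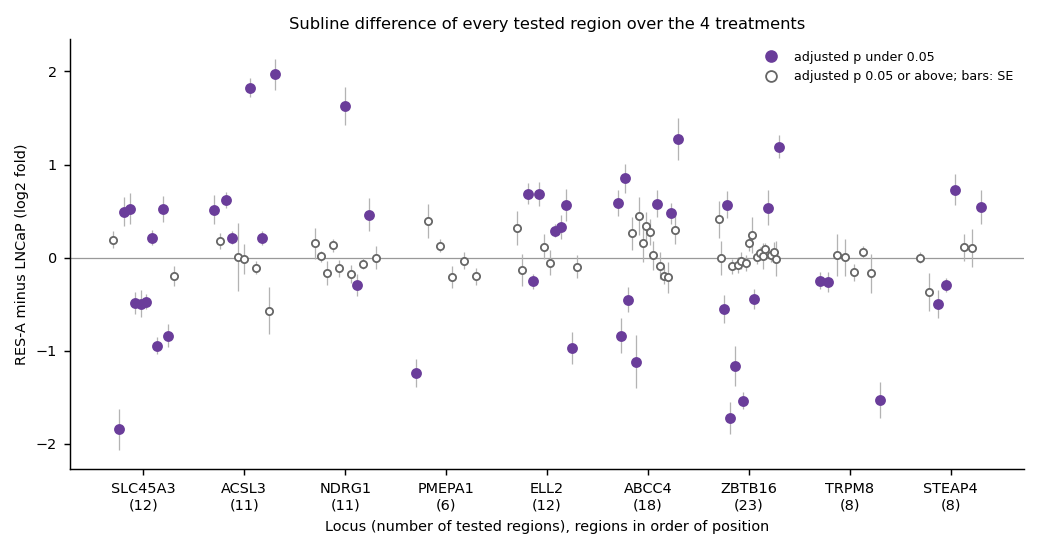
Log2 difference between RES-A and LNCaP over the 4 treatments (y axis) for each tested region, ordered by position within each locus (x axis), with SE as bars and filled points at an adjusted p under 0.05. The 6 called regions of ACSL3 all lie above 0 and the called regions of TRPM8 and PMEPA1 below it, while the other loci have called regions on both sides.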

How the data were processed

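FAIRE-seq was done in 24 libraries, 3 for each of 8 groups of subline and treatment. The authors aligned the reads to hg19 with BWA 0.7.8-r455, flagged duplicate reads by Picard 1.118 and called peaks per library by MACS2 2.1.0. The caller's options and any control library are not given in the sources used here. The deposited lists give for each peak the pileup signal at its summit, the fold enrichment ratio over local background, and −log10 p-values and q-values, with no q above 0.05. Sequencing depth was read from the genome-wide background of each list.

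The 50000 peaks with the smallest p-values of each library were merged into regions (overlap of at least 1 base), and regions top-ranked in at least 3 libraries were kept. Log2 fold values were centred on the median of the regions with a peak in all libraries and fitted with limma 3.58.1 (R 4.3.3) in 1 model of 8 group means, with Benjamini-Hochberg adjustment over all regions. Two-sided Fisher's exact tests (scipy 1.17.1) compared calls between sublines. Each locus names its strongest region and, per contrast, at most 3 called regions with the largest differences. The fit was tested on simulated data with normal noise around the mean of each region. These held no absent peaks entered at a lowest fold and no selection through top-ranked peaks. They therefore cannot show the error rates at regions with such values. The members and lists were chosen with earlier results of these data known.

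Alternatives were quantile normalization, no centring, missing values for absent peaks, pileup height, a q under 0.01, 25000 peaks, at least 6 libraries, summit position, background as covariate, within-subline fits, a replicate block, leaving out shallow libraries and leaving out each library. On 15 of 24 chromosomes a peak lay beyond the GRCh38 end, so no peak was placed on the GRCh38 reference, and peak sequences and gene annotation were not used here. No FAIRE-seq library was left out.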

Additional observations from a re-analysis of the deposited data

Results flagged for a closer look

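The DHT response of the TRPM8 region chr2:234928707-234929515 differed between the sublines by 2.64 on the log2 scale (limma interaction, adjusted p = 0.0306), with 2.85 in RES-A and 0.22 in LNCaP. The RES-A value rests on 3 DMSO libraries with no peak, which were entered at the lowest fold of their lists.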

How the results depend on the processing

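Of 44 named differences, 26 passed the threshold under every alternative in which they could be tested. Without centring 3 changed sign, NDRG1 chr8:134320456-134320954 to 0.0605, TRPM8 chr2:234797763-234798548 to 0.11 and TRPM8 chr2:234823858-234824174 to 0.10. The cause of the changes below was not tested. Counts under an alternative stand without the genome-wide share under the same alternative, so that no excess can be read from them. Leaving out the centring moved the median of all regions by 0.357 for RES-A against LNCaP, by -0.392 for DHT in LNCaP and by 0.375 for the difference of the DHT responses.

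For DHT in LNCaP (3 regions) the count was 7 with absent peaks left out, 1 with at least 6 libraries, 9 with background as covariate (4 higher, 5 lower), 0 in the within-subline fit, 8 by pileup, 1 from 25000 peaks and 1 among regions with a peak in all 24 libraries, an alternative chosen after seeing the data, and without centring 1 rose and 3 fell. For DHT in RES-A (16) it was 27 with absent peaks left out (16 higher, 11 lower), 30 in the within-subline fit (17, 13), 30 without the shallow libraries (15, 15), 35 by pileup (29, 6), 10 from 25000 peaks and 7 with a peak in all 24. For DHT+ENZ against DHT in LNCaP (0) it was 1 with absent peaks left out and 2 by pileup. In RES-A (2) it was 1 without centring, 4 with absent peaks left out, 0 with at least 6 libraries, 5 in the within-subline fit, 9 by pileup and 0 from 25000 peaks. For RES-A against LNCaP (50) it was 27 from 25000 peaks and 17 with a peak in all 24, and pileup gave 30 higher and 44 lower. For the difference of the DHT responses (1) it was 2 without centring, 0 with absent peaks left out, 7 with background as covariate, 5 without the shallow libraries and 5 by pileup. Leaving out 1 library at a time gave 1 to 6 regions for DHT in LNCaP, 9 to 20 in RES-A, 1 to 2 for DHT+ENZ against DHT in RES-A, 0 to 1 for ENZ in RES-A, 44 to 56 between the sublines and 0 to 6 for the difference of the DHT responses.

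Fisher calls numbered 14 from 25000 peaks and 54 from all peaks, against 25. Counted over all peaks, RES-A minus LNCaP became 6.667 at NDRG1, 3.167 at PMEPA1, -6.0 at ZBTB16, 0.25 at TRPM8 and 2.167 at STEAP4, and TRPM8 was at -1.583 with 25000 peaks.

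Same-numbered libraries of different treatments had deviations with a mean r of 0.0748 in LNCaP (over 0.1 in 7 of 18 pairs) and 0.0237 in RES-A (0 of 18), against -0.0343 (1 of 36) and -0.0118 (0 of 36) for different numbers. Since not every pair was over 0.1 and the labels name no shared batch, the numbers were not taken to pair the libraries. With the replicate block the counts were 2 and 15 for DHT in LNCaP and RES-A, 2 for DHT+ENZ against DHT in RES-A, 50 between the sublines, 1 for the difference of the DHT responses and 0 for the others, and the paired McNemar test called 16 regions. P-values measure the spread between these libraries of 1 derived and 1 parental line.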
